A study of Blastobotrys raffinosifermentans with 8 samples.

Results

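The tannin-degrading yeast *Blastobotrys raffinosifermentans* LS3 was compared between 2 h and 30 min after a shift to fresh medium. The comparison took the 4 arrays of these harvests out of the 8 arrays of the study, paired by arm. The remaining arrays also entered the spread that the tests used. In the gallic acid arm, cells received 0.5% gallic acid plus 1% glucose, and in the glucose arm they received 1% glucose only. Both arms started from the same kind of overnight culture in glucose medium with nitrate as nitrogen source, and each was harvested 4 times, early (15 and 30 min) and late (2 and 5 h), with 1 array per arm and harvest. The labels name gallic acid as the supplement. The study's methods describe arrays of this design with protocatechuic acid, and its data statement names a different series from the one used here. The study's discussion cites these data for gallic acid, as the labels do, and the labels were followed. All cells were of 1 wild-type strain. Nothing in the sources says whether the harvests of an arm came from separate cultures, so p-values measured only the spread between these arrays.

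Fresh medium commonly brings short-lived transcript responses in yeasts, in which genes for transport, stress defence and ribosome production change within minutes and then settle. Gallic acid is a phenolic acid set free from tannins. This yeast can remove its carboxyl group and then open the aromatic ring with a catechol dioxygenase, so that the ring carbon becomes available for growth. The array was built on locus tags, and no source used here pairs the tags with gene names, apart from a few that the study's text describes.

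The 2 h arrays had 74.3% (gallic acid) and 81.9% (glucose) of yeast spots well above background, against 67.7% (gallic acid) and 72.5% (glucose) on the 30 min arrays. Across tags, the 2 arms correlated with r of 0.97 at 2 h and 0.96 at 30 min, whereas 2 h and 30 min of 1 arm correlated with r of 0.84 (gallic acid) and 0.85 (glucose). Levels are log2 intensities after quantile normalisation, which gives every array the same distribution, so each change is relative to the rest of the array. Before that step the median yeast spot was higher at 2 h by 0.19 (gallic acid) and 0.67 (glucose), while the mean of 10 spiked control transcripts differed by -0.31 (gallic acid) and -0.24 (glucose) on the log2 scale. The part of this shift in the results was not tested. All arrays lay on 1 slide, whose columns follow the harvest times, so that harvest time and slide column cannot be told apart.

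Between these harvests, 979 of 6111 tested tags rose in both arms together (16% of tested tags) and 938 fell (15.3%), which is 31.4% in either direction (limma, Benjamini-Hochberg adjusted p below 0.05, 3 residual degrees of freedom). The spread in this fit came from the arrays of every harvest, including those at 15 min and 5 h. With only the 4 arrays of the compared harvests, 741 tags rose and 678 fell. Without the 5 h pair the counts were 817 risen and 681 fallen. Without the 15 min pair they were 983 risen and 1001 fallen. All 979 and all 938 had the same sign in both arms. The call all but requires this, because a disagreement of the arms widens the spread that the test uses. Most changes were moderate, with a median of 0.58 among risen and -0.53 among fallen tags on the log2 scale. Rises of at least 1 log2, which is a doubling, were called for 220 tags (3.6%), and falls of that size for 136 (2.23%). Changes of at least 2 log2 were called for 33 risen and 23 fallen tags. The counts past 1 log2 depended on the offset of 50 added to the intensities, which shrinks changes of dim tags, and reached 613 risen and 456 fallen without it. Leaving out 1 array also lowered the counts of calls. They were 601 risen and 338 fallen without the gallic acid array at 2 h, 582 risen and 370 fallen without the glucose array at 2 h, and 616 fallen without the gallic acid array at 30 min.

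**Figure D1:**
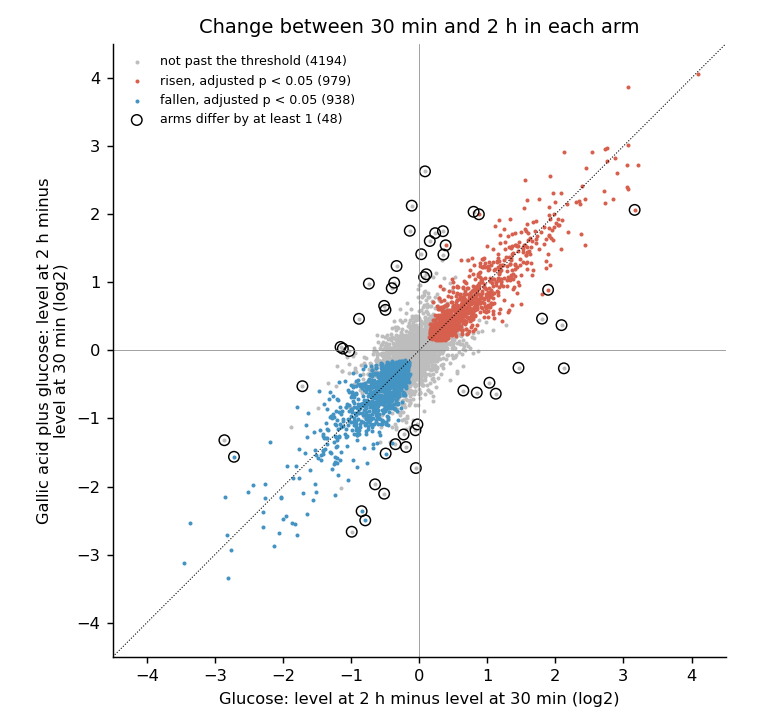
Change of each of 6111 tested tags between 30 min and 2 h (log2), with the gallic acid arm on the vertical axis and the glucose arm on the horizontal axis. Points are tags, coloured by the limma call over both arms (979 risen, 938 fallen), open circles mark the 48 tags whose arms differ by at least 1 log2, and the dotted line marks equal change in both arms.

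The plot of the change in each arm shows most tags near the line of equal change. Across all tested tags the changes of the 2 arms correlated with r of 0.87, as a description over tags that share arrays and normalisation, and 4896 of 6111 had the same sign. Calls were rare among dim tags. Of the 1528 tags with the lowest mean level 3.53% rose and 1.51% fell, against 23.2% risen and 28.5% fallen of the 1528 with the highest. At least 50% of the probes were well above background on all 4 arrays for 716 of the risen and 851 of the fallen tags, compared with 4135 of all tested tags. Every probe moved with the call in both arms for 195 of the 220 tags that rose by at least 1 log2 and for 130 of the 136 that fell by as much.

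By the median over probes, the rise was largest for ARAD1D12606g on chromosome D, a tag with no function given in the sources. Its level was 11.14 (gallic acid) and 11.17 (glucose) at 2 h, against 7.08 (gallic acid) and 7.08 (glucose) at 30 min. The 2 h levels stood far above both 30 min levels, and above the levels of 6.66 to 6.98 at 15 min and 5 h. The change was 4.08 on the log2 scale, a 16.9-fold rise (SE 0.08, n = 2 arms, limma adjusted p = 0.00022). Its 9 probes were not alike. The probe numbered 121 was bright at both harvests, at 13.21 (gallic acid) and 12.76 (glucose) at 2 h and 12.65 (gallic acid) and 12.50 (glucose) at 30 min, and changed by only 0.56 (gallic acid) and 0.27 (glucose). With this brightest probe in place of the median the tag's change was 0.41 (adjusted p = 0.13), and over the other alternatives it stayed past the threshold. Its rank was not fixed, since ARAD1D20922g was higher with the mean over probes (3.20 against 3.10 for ARAD1D12606g) and ARAD1D12584g with the 75th percentile scaling (5.69 against 4.43 for ARAD1D12606g).

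ARAD1D20922g, also on chromosome D and without a given function, came next by the rule for named tags. It stood at 11.00 (gallic acid) and 10.73 (glucose) at 2 h, against 7.12 (gallic acid) and 7.67 (glucose) at 30 min. The change was 3.47, an 11.1-fold rise (SE 0.21, n = 2 arms, limma adjusted p = 0.00086), and all 10 probes rose in both arms. Like ARAD1D12606g, it was low before and after, at 6.96 (gallic acid) and 6.91 (glucose) at 15 min and 7.55 (gallic acid) and 7.30 (glucose) at 5 h.

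By the median over probes, the fall was largest for ARAD1D41162g on chromosome D, again a tag with no given function. Its level was 6.19 (gallic acid) and 6.16 (glucose) at 2 h, against 9.31 (gallic acid) and 9.61 (glucose) at 30 min. The change was -3.28, a 9.74-fold lower level at 2 h (SE 0.09, n = 2 arms, limma adjusted p = 0.00033). Its 2 h levels were low enough for the offset to shrink the change, which was -4.89 at offset 0 and -5.62 with the 75th percentile scaling. At 15 min it had been at 6.43 (gallic acid) and 6.66 (glucose), so the 30 min arrays alone were high.

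ARAD1C26246g on chromosome C followed, with 6.24 (gallic acid) and 6.10 (glucose) at 2 h, against 9.58 (gallic acid) and 8.90 (glucose) at 30 min. The change was -3.07, an 8.42-fold lower level (SE 0.19, n = 2 arms, limma adjusted p = 0.00086), and it was -4.68 at offset 0 and -5.21 with the 75th percentile scaling. It too was high at 30 min only, and its levels at 15 min and 5 h lay between 6.17 and 6.20. The fall was largest at its probe numbered 703, with -4.58 (gallic acid) and -3.96 (glucose), and smallest at the last probe, numbered 883, with -0.42 (gallic acid) and -0.57 (glucose).

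**Figure D2:**
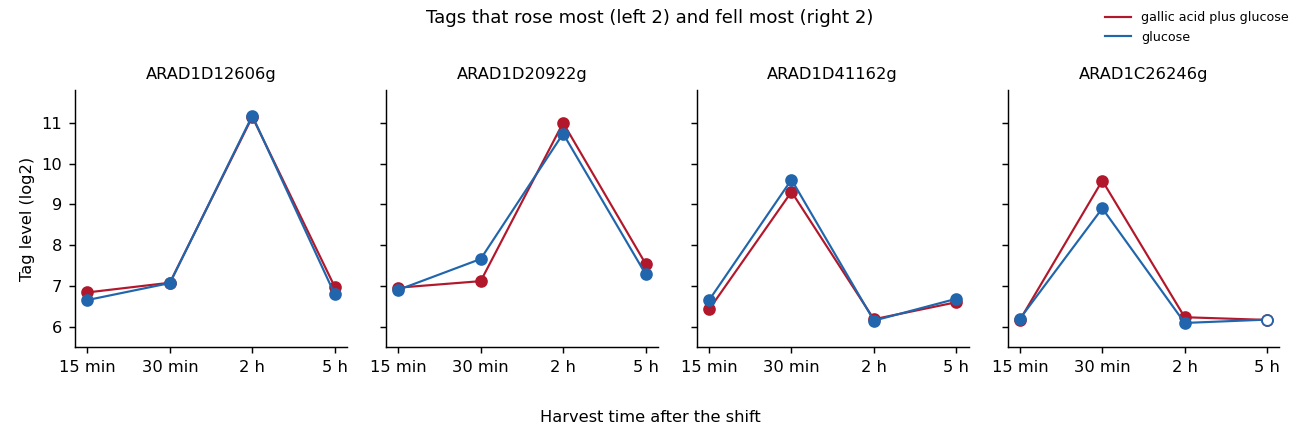
Level (log2, vertical axis) of the 2 tags that rose most and the 2 that fell most, at each harvest time (horizontal axis), in gallic acid plus glucose (red) and glucose (blue), 1 array per point. Open points mark arrays with under 50% of the probes well above background. The risen tags peak at 2 h and the fallen tags at 30 min in both arms.

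The course of these 4 tags was common among the large rises. Of the 220 tags that rose by at least 1 log2, 207 had their highest level of all 4 harvests at 2 h in both arms, and 51 had their lowest at 30 min. Of the 136 that fell by at least 1 log2, 98 were highest at 30 min in both arms and 86 were lowest at 2 h. Over all 979 risen tags 885 peaked at 2 h, beside 1344 of all tested tags. Over all 938 fallen tags 387 peaked at 30 min, beside 658 of all tested tags, and 680 had their lowest level at 2 h, beside 1801 of all tested tags. The calls fix the order of 2 h and 30 min in these counts, but not their order against 15 min and 5 h. Of all tested tags, 2061 were higher and 2835 lower in value at 2 h than at 30 min in both arms. Only the 2061 could peak at 2 h, and only the 2835 could peak at 30 min or be lowest at 2 h. They are therefore the nearer background for these counts.

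The arrays at 5 h and 15 min were not used by the contrast itself, and show which of the changed tags also differed over the whole course. They did enter the spread of each tag, which both contrasts share. A tag with a small spread is thus likelier to be called in both, and the overlaps below are not independent. Between them 406 of all tested tags were higher at 5 h (6.64%) and 392 were lower (6.41%) by the same limma fit. Of the 979 risen tags, 70 were also higher at 5 h than at 15 min (7.15%) and 79 were lower (8.07%), both near the shares over all tags. Of the 938 fallen tags, 77 were lower at 5 h (8.21%) and 141 were higher (15%). The median change between 15 min and 5 h was -0.03 for the 220 tags with large rises and 0.02 for the 136 with large falls.

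ARAD1B00924g had the largest rise among the tags that were also called higher at 5 h than at 15 min. It stood at 10.27 (gallic acid) and 10.31 (glucose) at 2 h, against 7.29 (gallic acid) and 7.55 (glucose) at 30 min, a change of 2.87 (SE 0.08, n = 2 arms, limma adjusted p = 0.00033). At 5 h it was at 8.35 in both arms, which was 1.03 above 15 min (adjusted p = 0.0046). ARAD1D22088g had the next largest such rise, with 10.34 (gallic acid) and 10.75 (glucose) at 2 h against 8.01 (gallic acid) and 8.04 (glucose) at 30 min, and it was 1.13 higher at 5 h than at 15 min (adjusted p = 0.011).

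Among fallen tags that were also called lower at 5 h than at 15 min, ARAD1D12034g fell most, with 6.13 (gallic acid) and 6.17 (glucose) at 2 h against 8.09 (gallic acid) and 8.44 (glucose) at 30 min. The change was -2.11 (SE 0.15, n = 2 arms, limma adjusted p = 0.0011), and -3.62 at offset 0 and -4.41 with the 75th percentile scaling. At 2 h 50% of its probes with gallic acid and 80% in glucose were well above background. Its change between 15 min and 5 h was -1.28 (adjusted p = 0.011). ARAD1D22880g had 6.86 (gallic acid) and 7.22 (glucose) at 2 h against 8.98 (gallic acid) and 8.46 (glucose) at 30 min, a change of -1.68 (adjusted p = 0.0043), and its change between 15 min and 5 h was -0.93 (adjusted p = 0.049).

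Called tags lay on all 4 nuclear chromosomes in like shares, with 15% to 17.3% of the tested tags of a chromosome risen and 14.5% to 16.5% fallen. Among 31 tags with the prefix ARAD1X, which no source explains, 1 rose and 5 fell. Some called tags were neighbours in tag order. Runs of 2 or more held 318 of the risen tags (32.5%) and 340 of the fallen tags (36.4%). With 16% of all tested tags risen and 15.3% fallen, a random order of tags also gives many such runs. The share expected from that was not computed, so these shares do not show that called tags cluster. No source used here gives the strand of a tag or says whether neighbours overlap. The 4 runs described next were chosen after their values were seen.

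The 3 neighbours ARAD1D12584g, ARAD1D12606g and ARAD1D12628g all rose by at least 1 log2. ARAD1D12584g was at 8.18 (gallic acid) and 8.63 (glucose) at 2 h, against 6.02 (gallic acid) and 5.90 (glucose) at 30 min, where 0% (gallic acid) and 10% (glucose) of its probes were well above background. Its change was 2.45 (limma adjusted p = 0.00098), and 4.62 at offset 0 and 5.69 with the 75th percentile scaling. ARAD1D12628g was at 7.93 (gallic acid) and 8.21 (glucose) at 2 h, against 6.76 (gallic acid) and 6.53 (glucose) at 30 min, a change of 1.43 (limma adjusted p = 0.0019), and 2.27 with the brightest probe. The order of the 3 rises changed with the processing, and is not given.

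A longer run of 6 risen tags on chromosome A reached from ARAD1A17204g to ARAD1A17314g, with changes of 0.29 to 2.52. The highest of these was ARAD1A17270g, at 11.06 (gallic acid) and 10.84 (glucose) at 2 h against 8.14 (gallic acid) and 8.71 (glucose) at 30 min. The weakest was ARAD1A17248g, whose change of 0.29 (limma adjusted p = 0.016) was 0.08 (adjusted p = 0.61) without probes whose name ends in _X, a mark that no source explains, and 0.86 (adjusted p = 0.028) with the 75th percentile scaling. Its call was also lost without the glucose array at 2 h (adjusted p = 0.10), the gallic acid array at 30 min (0.078) or the gallic acid array at 2 h (0.084). The call of ARAD1A17292g, which rose by 0.84 with 4 probes (adjusted p = 0.039), was lost without any 1 of the 4 arrays (adjusted p of 0.082 to 0.20), while its change was 2.02 with the 75th percentile scaling. ARAD1A17292g also lost its call with the mean over probes (a change of 0.93, limma adjusted p = 0.051). In total its call was lost in 8 of the 19 alternatives other than Bonferroni adjustment. The remaining 4 tags of the run kept their calls in every alternative except Bonferroni adjustment.

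Among fallen tags, 5 neighbours on chromosome C, from ARAD1C19140g to ARAD1C19228g, changed by -2.10 to -0.93. Of these, ARAD1C19140g changed by -1.01 (-1.72 with the 75th percentile scaling) and ARAD1C19162g by -1.60 (-3.27 with that scaling). ARAD1C19228g fell most, to 7.90 (gallic acid) and 7.59 (glucose) at 2 h, against 10.06 (gallic acid) and 9.62 (glucose) at 30 min. All 5 were lower at 15 min than at 30 min in both arms. The call of ARAD1C19228g (limma adjusted p = 0.009) was lost without the glucose array at 2 h (adjusted p = 0.067), the gallic acid array at 30 min (0.052) or the gallic acid array at 2 h (0.051). ARAD1C19184g lost its call without the gallic acid array at 30 min (0.066) or at 2 h (0.072), and ARAD1C19206g without the glucose array at 2 h (0.054) or the gallic acid array at 2 h (0.050397).

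The 3 neighbours ARAD1D25080g, ARAD1D25102g and ARAD1D25124g fell by at least 1 log2 and were also called lower at 5 h than at 15 min. The middle tag, ARAD1D25102g, was at 8.97 (gallic acid) and 8.35 (glucose) at 2 h, against 10.72 (gallic acid) and 9.94 (glucose) at 30 min, a change of -1.68 (limma adjusted p = 0.015). It had been at 11.12 (gallic acid) and 11.27 (glucose) at 15 min and was at 8.43 (gallic acid) and 8.80 (glucose) at 5 h, so its 30 min levels were below its 15 min levels in both arms. Without the glucose array at 2 h none of the 3 passed the threshold, with adjusted p of 0.052 (ARAD1D25080g), 0.097 (ARAD1D25102g) and 0.16 (ARAD1D25124g). ARAD1D25102g and ARAD1D25124g also lost their calls without the gallic acid array at 30 min (0.067 and 0.10) or at 2 h (0.051 and 0.095).

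**Figure D3:**
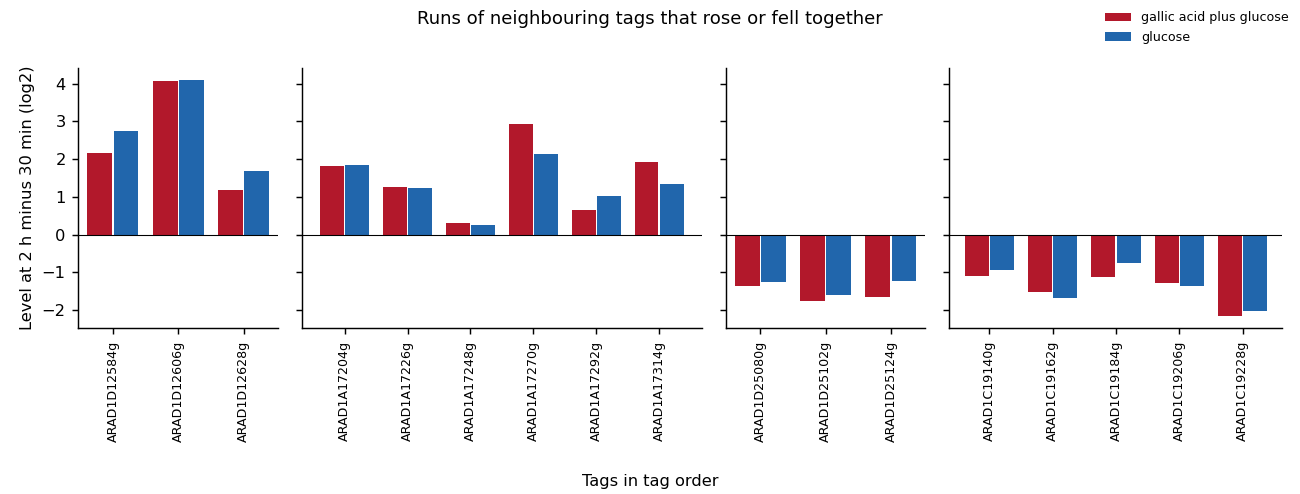
Change between 30 min and 2 h (log2, vertical axis) of the tags in 4 runs of neighbours (horizontal axis, in tag order), with 1 red bar for the gallic acid arm and 1 blue bar for the glucose arm per tag. In the 2 runs on the left all bars are above 0, and in the 2 runs on the right all are below 0.

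Whether the change between harvests differed by arm was asked with an interaction term. No tag passed (0% of tested tags, lowest limma adjusted p = 0.999). An unadjusted p below 0.05 was found for 256 of 6111 tags. That count takes no account of the number of tests and is not read as a difference between arms. The interaction term had 2 residual degrees of freedom, from the ratios of the arms at 15 min and 5 h and the mean of the other pair. Differences between arms are therefore given by size, with no test. A difference counted where the changes of the arms were at least 1 log2 apart with at least 80% of probes of that sign, and 48 tags met this (0.785%).

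Within the gallic acid arm alone 233 tags were at least 1 log2 higher and 189 at least 1 log2 lower at 2 h than at 30 min, with the same condition on probes. Within the glucose arm 241 were higher and 145 lower. Both arms together had 181 higher and 98 lower, and no tag was higher by this size in 1 arm and lower by it in the other. A tag that met the size in a single arm mostly had the same sign in the other. Of the 52 tags higher only with gallic acid 49 were higher in glucose in value, with a median change of 0.80 there, and all 91 tags lower only with gallic acid were lower in glucose in value, with a median of -0.69. Of the 60 higher only in glucose 56 had the same sign with gallic acid, and of the 47 lower only in glucose 45 did.

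Of the 48 tags that differed by size, 26 changed more upward with gallic acid and 22 more downward. In 17 of them the arms moved in opposite directions in value. In 16 of the 48 the arms were at least 1 log2 apart at 2 h but not at 30 min, in 14 they were apart at 30 min but not at 2 h, in 2 at both harvests, and in 16 at neither.

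Of the differences upward with gallic acid, ARAD1D17754g had the highest value. With gallic acid it stood at 8.98 at 2 h against 6.35 at 30 min, a change of 2.63, and in glucose at 6.12 at 2 h against 6.03 at 30 min, a change of 0.09. The difference of the changes was 2.54 (interaction SE 0.31, limma adjusted p = 0.999). In glucose none of its probes were well above background at 30 min and 70% were at 2 h, so its glucose levels lay at the limit of detection and the difference is no exact value. With gallic acid it had also been higher at 15 min, at 7.27, than at 30 min.

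ARAD1A19800g had the next highest value, with 9.27 at 2 h against 7.15 at 30 min with gallic acid and 5.91 at 2 h against 6.02 at 30 min in glucose. The difference was 2.23 (interaction SE 1.06). In glucose 10% of its probes at 2 h and 20% at 30 min were well above background, while with gallic acid all were at both harvests.

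Of the differences downward with gallic acid, ARAD1B02178g had the lowest value. Its level with gallic acid was 5.98 at 2 h against 6.24 at 30 min, and in glucose it was 8.85 at 2 h against 6.72 at 30 min. The difference was -2.39 (interaction SE 0.50). It was -3.88 at offset 0, -3.96 with the 75th percentile scaling and -0.53 with the brightest probe. That probe, numbered 10, went down in both arms, by -1.71 (gallic acid) and -1.17 (glucose), while the other 9 probes rose in value in glucose by 1.16 to 3.31. At 2 h 20% of the probes were well above background with gallic acid, and all were in glucose.

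ARAD1D45738g was at 8.92 at 2 h against 9.56 at 30 min with gallic acid, and at 9.84 at 2 h against 8.72 at 30 min in glucose. The difference was -1.76 (interaction SE 0.40), and -1.04 with the brightest probe. Its probe numbered 650 stood at 6.50 on the glucose array at 30 min and changed by 3.49 there, whereas the other 9 probes changed by 0.18 to 0.91 in glucose. The median of its probe changes in glucose was 0.75, below the change of 1.12 in its tag level. With probe-centred values, an alternative chosen after seeing the data, the difference was -1.37. All 10 probes were lower at 2 h with gallic acid and all 10 higher in glucose. By tag level the next lowest difference was -1.72, for ARAD1C38082g, so the rank of ARAD1D45738g was not firm.

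**Figure D4:**
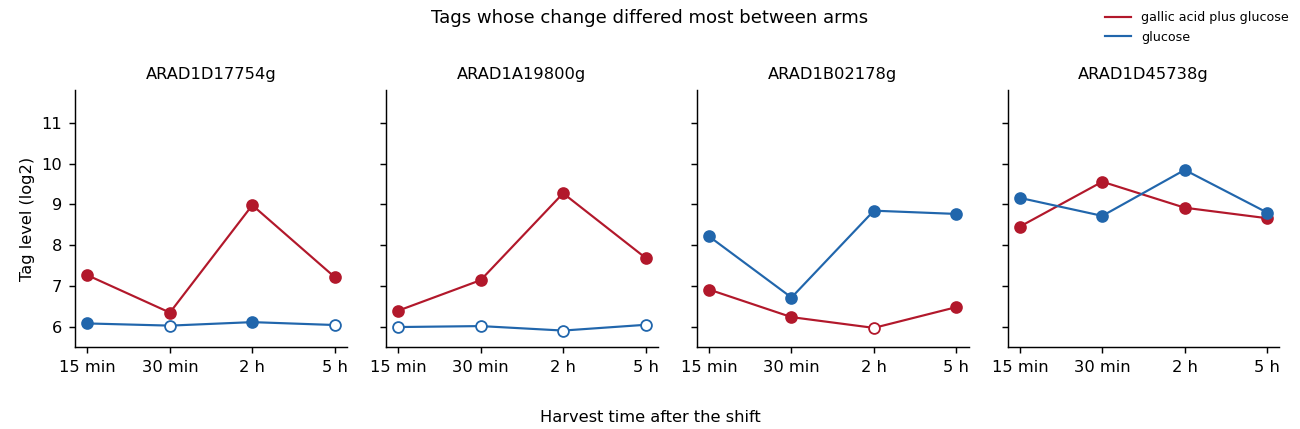
Level (log2, vertical axis) of the 2 tags whose change was highest and the 2 whose change was lowest with gallic acid relative to glucose, at each harvest time (horizontal axis), in gallic acid plus glucose (red) and glucose (blue), 1 array per point. Open points mark arrays with under 50% of the probes well above background, as in ARAD1A19800g in glucose at all 4 harvests.

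**Figure D5:**
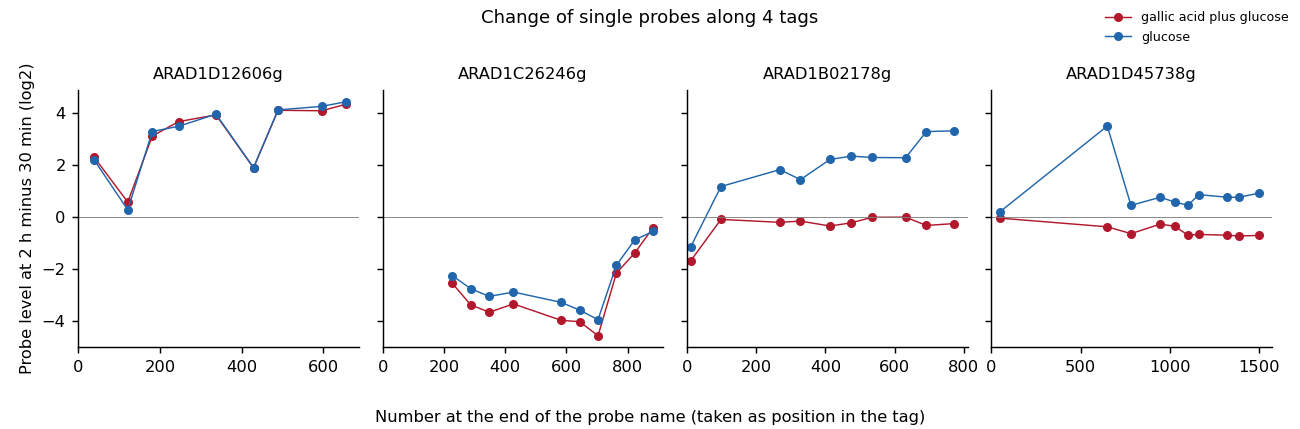
Change of single probes between 30 min and 2 h (log2, vertical axis) against the number at the end of the probe's name, taken as its position in the tag (horizontal axis), in gallic acid plus glucose (red) and glucose (blue). ARAD1D12606g has 1 probe near 0, ARAD1C26246g loses its fall toward the last probe, ARAD1B02178g has a first probe that goes down in both arms, and ARAD1D45738g has 1 probe at 3.49 in glucose.

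The plot of single probes shows that the changes of ARAD1D12606g and ARAD1C26246g were carried by most of their probes in both arms, and that ARAD1B02178g and ARAD1D45738g each had 1 probe apart from the rest.

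Tags to which the study's text gives a role in the breakdown of aromatic acids were described next. Of the 10 tags on that list 9 were found on the array and 8 were tested, and of these 2 rose and 1 fell. This is beside 16% risen and 15.3% fallen over all tested tags. The median change of the 8 was -0.13. ARAD1C45716g, which encodes the gallic acid decarboxylase that starts this route, was not analysed here.

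Hydroxylases add a hydroxyl group to the ring. The study put forward 6 of the 10 listed tags as candidates for turning protocatechuic acid into hydroxyquinol. It chose them from arrays with protocatechuic acid and from annotations, not from the gallic acid arrays used here. ARAD1C03498g rose, with 7.81 (gallic acid) and 8.57 (glucose) at 2 h against 6.99 (gallic acid) and 6.76 (glucose) at 30 min. The change was 1.31 (SE 0.31, n = 2 arms, limma adjusted p = 0.032), with 0.82 in the gallic acid arm and 1.81 in the glucose arm, and all 10 probes rose in both. Its call was lost without the glucose array at 30 min (adjusted p = 0.14), the glucose array at 2 h (0.095) or the gallic acid array at 30 min (0.087), and the change without the glucose array at 2 h was 0.82. The mean over probes (a change of 1.08, limma adjusted p = 0.077) and the brightest probe (1.33, adjusted p = 0.086) lost the call too. In total the call was lost in 8 of the 19 alternatives other than Bonferroni adjustment. The lowest adjusted p among these alternatives was 0.0052, at offset 0.

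ARAD1D27984g fell, with 7.36 (gallic acid) and 7.16 (glucose) at 2 h against 8.00 (gallic acid) and 7.90 (glucose) at 30 min. The change was -0.69 (SE 0.10, n = 2 arms, limma adjusted p = 0.007), all 7 probes went down in both arms, and without the glucose array at 2 h the adjusted p was 0.056. With the 75th percentile scaling the change was -1.12. Levels at 15 min and 5 h lay between 7.91 and 8.14, so this tag was low at 2 h only. The other candidates that were tested did not pass the threshold. ARAD1C00330g changed by -0.25 (adjusted p = 0.30), with -0.42 in the gallic acid arm and -0.09 in the glucose arm, where no array of the 4 harvests had more than 20% of its probes detected above background. ARAD1D18392g changed by -0.09 (adjusted p = 0.64). ARAD1C08558g (0.04) and ARAD1A17402g (-0.17, adjusted p = 0.051), a protein match to a hydroxylase of another fungus, were dim, with no more than 30% of probes detected above background on any of the 4 arrays. For the dim ARAD1C08558g the 75th percentile scaling of the processed signal gave 1.06 (adjusted p = 0.016), while its change was 0.04 by the fit reported. ARAD1A17402g was lower at offset 0 with -1.05 (adjusted p = 0.0015), and it also passed the threshold with median scaling (0.018), the authors' table (0.023), no filter (0.0499), a trended prior (0.0039) and no block (0.039). ARAD1C08580g did not pass the filter on dim tags.

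Phenol hydroxylases add a hydroxyl group to a phenolic ring, and ARAD1D18502g is annotated as one in the study's text. Its level was 8.24 (gallic acid) and 8.13 (glucose) at 2 h against 8.38 (gallic acid) and 8.67 (glucose) at 30 min, a change of -0.34 that did not pass the threshold (adjusted p = 0.23). The catechol dioxygenase tag ARAD1D18458g (*ACDO1*), whose product opens the ring of catechol, rose, with 7.06 (gallic acid) and 7.08 (glucose) at 2 h against 6.75 (gallic acid) and 6.56 (glucose) at 30 min. The change was 0.42 (SE 0.08, n = 2 arms, limma adjusted p = 0.016). Its probes were split. With gallic acid 7 of 10 rose, with changes of -0.26 to 0.85, a share below that asked of the other named tags. In glucose 9 of 10 rose, with changes of -0.02 to 1.27. Its probes carry numbers from 815 to 1618, which reach past the length of the reading frame that the study describes, so where some of them bind is not known. Without the glucose array at 2 h the adjusted p was 0.10, without the gallic acid array at 2 h it was 0.077, and with only the 4 arrays of these harvests it was 0.055. The change was 0.75 (adjusted p = 0.016) at offset 0 and 0.86 (adjusted p = 0.075) with the 75th percentile scaling, and with the brightest probe the change was -0.09 (adjusted p = 0.59). The rise was present in the glucose arm (0.53) as well as in the gallic acid arm (0.31). At 5 h both arms were back at 6.09 (gallic acid) and 6.10 (glucose). Only 10% of its probes were well above background there in each arm, so these levels lay near the limit of detection.

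The putative mitochondrial tags, marked by the prefix ARAD1M, are set here beside all tested tags. None of the 35 tested was called (limma, adjusted p of at least 0.097), beside 31.4% over all tested tags, and 1 had an unadjusted p below 0.05, beside 2681 of 6111 over all tested tags. Their changes ranged from -0.57 to 0.09 with a median of -0.09, beside -0.03 over all tested tags, and 29 of 35 were lower at 2 h in value, beside 3505 of 6111. The median was -0.14 in the gallic acid arm and -0.03 in the glucose arm, and without the gallic acid array at 2 h the median of the fitted changes was 0.07. With only the 4 arrays of these harvests, or without the pair at 15 min, 2 mitochondrial tags were called as fallen. At least 50% of the probes of 31 of these tags were well above background on all 4 arrays. Many of the 35 tags had only 1 probe. The SE of their changes lay between 0.054 (ARAD1M90330g) and 0.36 (ARAD1M90190g), mostly above the median of 0.074 over all tested tags. The lack of calls therefore does not show that these levels stayed unchanged.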

How the data were processed

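RNA of 8 samples was labelled with Cy3 and hybridised to one-colour Agilent arrays, 1 per arm and harvest time. The authors deposited spot intensity values from Agilent Feature Extraction 11.5.1.1 (median spot signal, local background and processed signal), flags of 0 or 1 (other values, deposited without unit), and a log2 table that the authors made with limma (normexp, quantile), whose offset no source states. The genome build is not given in the sources used here.

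From the median signals, background was corrected with normexp (offset 50, limma 3.58.1, R 4.3.3). Of 62976 spots per array, 1439 control spots were removed. Arrays were quantile-normalised, 0 to 6 outlier spots per array left out, spots of a probe averaged, and the median over probes taken as tag level (56311 probes, 6159 tags, and 1 probe with no tag left out). No yeast spot was saturated. A tag was tested when at least 1 probe was well above background on at least 2 arrays. The offset shrinks changes of dim tags. The number of arrays limits the precision.

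The limma model had harvest time and arm as a block on all 8 arrays, and the contrast was 2 h minus 30 min. An interaction term gave the difference between arms. The study's Bonferroni adjustment was an alternative. Other alternatives were 75th percentile scaling, offset 0, median scaling, the authors' table, other probe summaries, other filters, a trended prior, fewer arrays and no block. Scripts were tested on simulated data. The members, lists and rules were chosen with earlier results of these data known. Named tags were the 2 highest and 2 lowest of each comparison among called tags with at least 4 probes and 80% of probes of 1 sign in each arm, for the difference between arms by size, and the aromatic acid tags. Lists by gene function were not analysed here, because no table used here pairs tags with products.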

Additional observations from a re-analysis of the deposited data

Results flagged for a closer look

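Among the named and aromatic acid tags, 4 moved in opposite directions in the 2 arms in value, with 1 array per arm and harvest. The difference, gallic acid minus glucose, was 2.23 for ARAD1A19800g, whose probes were mostly not well above background in glucose. It was -2.39 for ARAD1B02178g, -1.76 for ARAD1D45738g and 0.25 for ARAD1D18392g. For each of them the limma interaction term had an adjusted p of 0.999, so none passed the test of the difference.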

How the results depend on the processing

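No tag passed the interaction term under any of the 12 alternatives run for it. Tags risen and fallen with Bonferroni adjustment were 51 and 20 (49 and 18 by at least 1 log2). Leaving out 1 of the 4 arrays gave 582 to 717 risen and 338 to 733 fallen tags, in fits with fewer degrees of freedom. Called rises and falls of at least 1 log2 numbered 851 and 697 with the 75th percentile, 613 and 456 at offset 0, 396 and 268 with the authors' table, and 389 and 305 with the brightest probe. Tags past the size in both arms, higher and lower, numbered 643 and 469 with the 75th percentile, 471 and 300 at offset 0, 321 and 179 with the authors' table, 318 and 223 with the brightest probe, and 26 and 14 at a size of 2. Tags whose arms differed by size, with the change higher and lower with gallic acid, numbered 202 and 279 with the 75th percentile, 97 and 107 at offset 0, 52 and 52 with the authors' table, 124 and 62 with the brightest probe, and 2 and 1 at a size of 2, and with median scaling 35 were lower. Between 15 min and 5 h, 230 tags rose with median scaling, and 19 rose and 3 fell with Bonferroni adjustment. Risen tags were 71.8% of calls with Bonferroni, 61.1% without the glucose array at 2 h and 64% without the gallic acid array at 2 h, against 51.1% in the fit reported. Of the combinations of a described tag with an alternative, 599 kept direction and side of the threshold, 64 lost the call, 7 gained one, 10 moved by more than the spread of probes, and 1, ARAD1D18458g with the brightest probe, changed sign (a change of -0.095). The causes were not tested. Paired analysis by replicate number was not possible because each group has 1 array.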

Other observations

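Within tags, the change was often larger at probes with higher numbers. Of 342 tags with at least 4 probes that were called and changed by at least 1 log2, the upper 50% of the probes by number moved further in the direction of the call in 251 with gallic acid and in 244 in glucose. The median excess over the lower 50% was 0.30 (gallic acid) and 0.34 (glucose) on the log2 scale. The upper 50% was also the brighter set in 233 of these tags.

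The choice of probe decided the direction of some calls. When each tag was represented by its brightest probe, 820 tags rose and 1004 fell, of which 614 and 598 were shared with the calls from the median over probes, and 29 called tags had the opposite direction. In the other alternatives no called tag had a direction opposite to its call from the median over probes.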
